A study of Mus musculus with 49 samples.

Results

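The bladders of mice that drank water with 10 ppm arsenate for 12 weeks were compared with those of mice that drank plain water for the same time. The comparison rests on 10 of the 49 arrays of the study, 5 arrays labelled HC_10_12wk and 5 labelled HC_0_12wk, chosen by these title prefixes. All animals were female adult C57Bl/J mice, 155 days old at harvest, killed with carbon dioxide and bled by cardiac puncture. The treated mice had arsenate in their drinking water at 10 ppm, and the water mice had the vehicle alone. Each array held the RNA of 1 mouse without pooling, so the spread within a group is a spread between mice. Groups of 5 mice at 0.5, 2 and 50 ppm, of the same age and harvest, served to place the 10 ppm group among the doses. The groups given water or 10 ppm for 1 week, 76 days old, served to set the 12-week effect beside the early one. The labels number the 10 ppm mice 15-1 to 15-5 and the water mice 4-1 to 4-5. What the leading number marks is not given, and it cannot be told apart from the dose.

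Arsenate is the pentavalent form of inorganic arsenic. It enters cells in place of phosphate, is reduced to arsenite and is methylated by As3mt, and the products leave the body mostly in urine, which is held against the bladder lining. The bladder wall is made of a stratified epithelium, the urothelium, over a stroma of fibroblasts, collagen and vessels and a coat of smooth muscle. Immediate early genes such as Egr1 and Fos encode transcription factors whose messenger RNAs appear within minutes of growth factor, stretch or stress signals and decay quickly.

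Expression was read as 1 signal per probe set on Affymetrix Mouse430_2 arrays and analysed as log2(signal + 16), a scale with a floor of 4, for 14624 genes at 1 probe set a gene. The signals of different probe sets were not set against each other as amounts of RNA. The markers of superficial and intermediate urothelium had a mean signal of 13.43 to 13.76 over the 10 ppm arrays and of 13.32 to 13.52 over the water arrays, and smooth muscle markers 12.73 to 13.33 and 12.82 to 13.24. The labelled tissue was therefore present in both groups. Markers of T and NK cells lay between 5.97 and 6.86 and those of neutrophils between 5.16 and 6.80 in these arrays, near the low end of the scale. In whole tissue, fewer cells of a type and less RNA per cell cannot be told apart.

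The groups also differed in 3 measures that are not gene expression. The OD260 of the RNA, its absorbance as given in the labels, was 0.932, 1.79, 1.311, 1.073 and 1.367 in the 5 treated mice and 2.127, 2.385, 2.265, 2.299 and 2.21 in the water mice. The 2 ranges did not overlap (mean 1.29 ± 0.33 against 2.26 ± 0.10, SD, n = 5 each, two-sided exact permutation p = 0.00794, adjusted 0.0185 over 7 measures). The poly-A spike level, the mean log2 signal of control transcripts with a poly-A tail, was 9.65 ± 0.21 against 10.71 ± 0.36 (SD), and the hybridization controls, added after labelling, were at 11.76 ± 0.26 against 11.20 ± 0.10 (SD). Neither overlapped between the groups, and each gave the same exact permutation p of 0.00794, the smallest that 5 against 5 arrays can give. The RNA integrity number averaged 9.64 and 9.58 (exact permutation p = 0.595), and the OD260 to OD280 ratio and the 3′ to 5′ differences of Gapdh and Actb had exact permutation p of 0.627 to 0.873. The 50 ppm arrays lay near the 10 ppm arrays in the same 3 measures, with means of 1.61, 9.84 and 11.72, while 0.5 and 2 ppm had means of 2.12 and 2.44 for OD260, 10.30 and 10.21 for the spike level and 11.34 and 11.31 for the hybridization controls. In OD260 every 10 ppm array (0.932 to 1.79) also lay below every array at 0.5 ppm (1.805 to 2.71) and 2 ppm (1.844 to 3.028). In the spike level every 10 ppm array (9.46 to 10.01) lay below every 2 ppm array (10.09 to 10.33). OD260 was a covariate only in the comparison with water. The part of these measures in the results was not tested beyond the covariate fits given below.

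**Figure D1:**
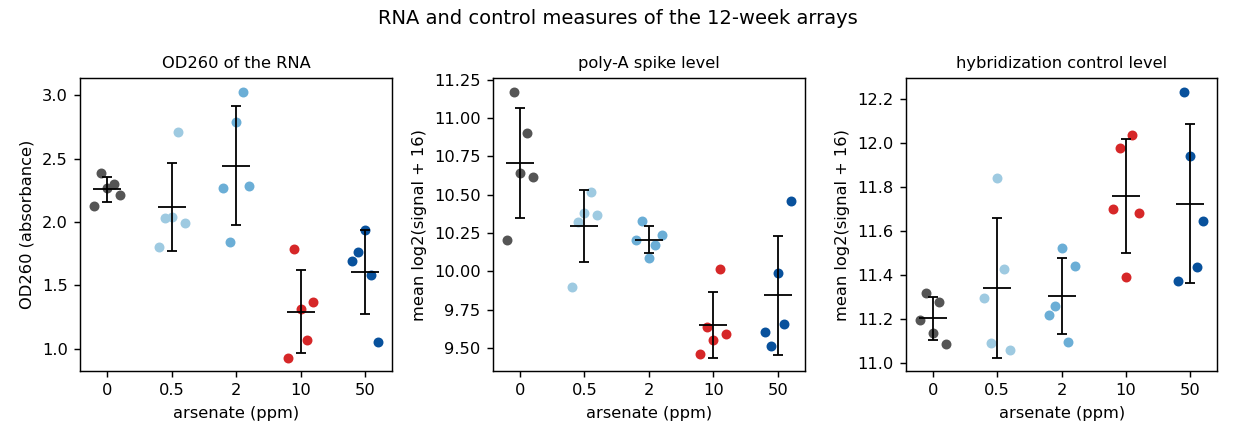
OD260 of the RNA (absorbance), poly-A spike level and hybridization control level (mean log2(signal + 16)) of each 12-week array, by arsenate dose in ppm; points are mice, horizontal bars means and vertical bars SD over 5 mice. The 5 points at 10 ppm lie below all 5 water points in OD260 and spike level and above them in the hybridization controls.

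At 10 ppm, 49 of 14624 genes passed limma's test at a Benjamini-Hochberg adjusted p under 0.05, a share of 0.335%. Of these 33 were higher than in water (0.226%) and 16 lower (0.109%), and 31 differed by at least 1.5-fold. The largest falls were in the early response genes Egr1, Ccn1 and Fos, and the largest rises in the splicing gene Ccdc130, 4932431P20Rik, the folding enzyme Pdia4 and the transcription kinase Cdk12. In every one of the 49 genes all 5 treated mice lay on the same side of the water mean, and in 44 the 2 groups did not overlap, as they did not in 468 of all genes tested (3.2%). The 49 were chosen by the test on these same arrays, so these counts are no independent result. None of the 49 had a group mean under 5, where the offset sets the size of a change. The median change over all genes was -0.03, and 2347 genes had an unadjusted p under 0.05.

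The count was sensitive to single mice. It was 331 without water replicate 1, and 11, 14, 19 and 19 without water replicates 2 to 5. It was 9, 12, 25 and 18 without 10 ppm replicates 1, 2, 3 and 5, and 58 without replicate 4. Egr1, Ccn1, Ccdc130, Cdk12, 4932431P20Rik, Ttc5, Plekhh1 and Ywhaz kept their call in each of these 10 fits. With OD260 as a covariate 0 genes were called by limma, with 655 at an unadjusted p under 0.05. With the poly-A spike level 56 were called, 5 of them among the 49, and with the hybridization controls 20 were called, 14 of them among the 49. All 49 kept their direction in each of these 3 covariate fits, but not their size. With the spike level Slf2 went from 0.56 to 0.03, Pds5a from 0.86 to 0.07 and Atrn from 0.45 to 0.09. Plscr3 went from -0.67 to -0.12, Gsk3b from 0.60 to 0.19 and Net1 from 0.82 to 0.25. Others grew in that fit, among them Tpbg from 0.89 to 1.63 and Pdia4 from 0.93 to 1.35.

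**Figure D2:**
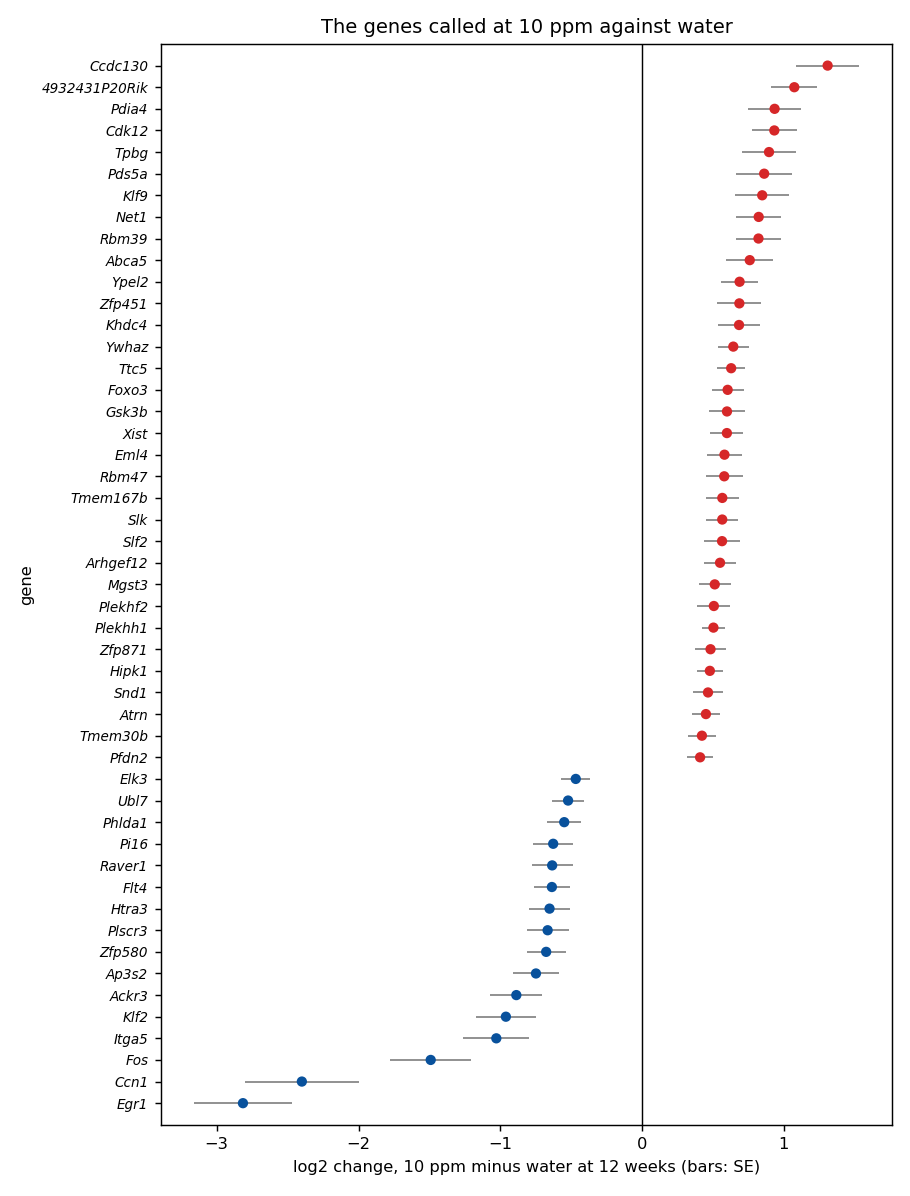
Change of the 49 called genes at 10 ppm against water after 12 weeks, as the log2 difference of group means with its SE (5 mice a group), sorted by size. The falls reach -2.82 in Egr1 and the rises 1.31 in Ccdc130, and no called gene changed by less than 0.41 on the log2 scale.

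The 3 largest falls were in Egr1, Ccn1 and Fos. Egr1, a zinc finger transcription factor induced within minutes by growth and stress signals, had log2 signals of 11.89, 13.34, 12.41, 12.79 and 12.56 in the water mice and of 9.41, 10.05, 10.00, 9.46 and 9.99 in the treated mice. Every treated mouse was below every water mouse. Egr1 fell by 2.82 ± 0.34 on the log2 scale (SE, adjusted p = 1.16e-04). With OD260 as a covariate the change was -2.05 ± 0.45 (adjusted p = 0.520), with the spike level -1.51 ± 0.49 (adjusted p = 0.130) and with the hybridization controls -2.76 ± 0.44 (adjusted p = 0.00796).

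Ccn1, a secreted matrix protein that binds integrins and is a target of YAP and SRF, stood at 10.64, 11.22, 9.06, 10.69 and 11.01 in water and at 7.93, 7.93, 8.11, 8.36 and 8.29 at 10 ppm. The groups did not overlap, and water replicate 3 was the nearest to the treated mice. Ccn1 fell by 2.40 ± 0.40 (adjusted p = 0.00528). Its 4 probe sets disagreed: a second one fell by 2.66 ± 0.40, while the 2 dimmer ones stood at 0.13 ± 0.42 and 0.03 ± 0.37.

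Fos, the AP-1 subunit, had signals of 12.48, 13.83, 12.38, 12.96 and 12.97 in water and of 11.23, 11.63, 11.48, 11.31 and 11.52 at 10 ppm, again without overlap. It fell by 1.49 ± 0.28 (adjusted p = 0.0186), but not past the test without water replicate 2 (-1.27, adjusted p = 0.0767) or without 10 ppm replicate 1 (-1.44, adjusted p = 0.0618). Fos stood at -0.58 ± 0.43 with the spike level in the fit, -0.81 ± 0.37 with OD260 and -1.21 ± 0.35 with the hybridization controls. None of these passed the test. Klf2, a flow-responsive factor of endothelium, ran from 10.05 to 11.18 in water and from 9.32 to 9.90 at 10 ppm, and fell by 0.96 ± 0.21 (adjusted p = 0.0416). Its call was lost in 7 of the 10 fits without a mouse, with changes of -1.08 to -0.79 over all 10. Klf2 stood at -0.30 with the spike level in the fit, -0.37 with OD260 and -1.10 with the hybridization controls, and was called in none of them.

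The promoters of Fos and Ccn1 are shown because these genes fell together and share a cyclic AMP response element half-site close to the start. They are the 250 bases before the annotated start in RefSeq (GRCm38.p6), written 5′ to 3′ on the gene's strand, with capitals for the half-site TGACGT, which on the other strand reads from start to end as ACGTCA, and for the TATA box motif TATAAA.
Fos, chr12:85473640-85473889, plus strand: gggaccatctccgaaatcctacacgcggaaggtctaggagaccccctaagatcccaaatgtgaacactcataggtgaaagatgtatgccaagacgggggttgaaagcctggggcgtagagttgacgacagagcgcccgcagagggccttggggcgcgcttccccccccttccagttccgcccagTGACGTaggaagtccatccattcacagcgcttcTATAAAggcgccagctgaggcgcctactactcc
Ccn1, chr3:145649986-145650235, minus strand: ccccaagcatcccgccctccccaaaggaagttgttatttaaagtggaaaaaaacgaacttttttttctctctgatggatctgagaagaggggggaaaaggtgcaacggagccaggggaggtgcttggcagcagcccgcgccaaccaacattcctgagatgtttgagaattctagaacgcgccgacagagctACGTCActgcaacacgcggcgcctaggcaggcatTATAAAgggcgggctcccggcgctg
The half-site begins 66 bases before the start in Fos and 59 in Ccn1, and the TATA box motif 33 and 25. Searched on both strands, TGACGT was found in 6.47% and TATAAA in 12.4% of 32851 promoter windows of this length. These shares are over single windows, while a called gene is counted below if any of its windows held the motif. Among the called genes with a promoter in the table, TGACGT was found in 2 of 14 falls, Ccn1 and Fos, and in 2 of 29 rises, Klf9 and Snd1. TATAAA was found in 4 of the 14 falls and in 3 of the 29 rises. The CArG box bound by SRF, found in 1.47% of the windows, was in none of those 14 and 29 genes within the 250 bases. Sites further from the start were not searched. These matches describe letters in a short window and say nothing about the binding of a factor.

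Among the 24 measured immediate early transcription factors 3 fell (Egr1, Fos and Klf2) and 0 rose, beside 0.109% of all genes lower. The list was chosen with earlier results of these data known, so the count is no independent result. Its median change was -0.34 against -0.03 over all genes. The mean was higher than in water in 5 of the 24. The orphan nuclear receptor Nr4a1 stood at -1.80 ± 0.51 (adjusted p = 0.0894) and Egr3 at -1.06 ± 0.39 without overlap between the groups (adjusted p = 0.181). Csrnp1 stood at -0.87 ± 0.26 (adjusted p = 0.109) and the AP-1 subunit Jund at -0.61 ± 0.18 (adjusted p = 0.107). Nr4a1 overlapped because 10 ppm replicate 1, at 10.98, lay above water replicates 1 and 3, at 10.80 and 10.81. The count of falls ranged from 1 without water replicate 2 or 10 ppm replicate 1 to 6 without water replicate 1. With OD260 or the spike level in the fit it was 0, with median changes of 0.09 and 0.04.

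Feedback regulators limit these signals. Of 29 measured feedback regulators Phlda1, a pleckstrin homology protein induced by growth factors, was the only one called, beside 0.109% of all genes lower. It ran from 12.29 to 12.72 in water and from 11.73 to 12.16 at 10 ppm and fell by 0.55 ± 0.12 (adjusted p = 0.0408). The groups did not overlap either in Spry1, an inhibitor of receptor tyrosine kinase signalling (-0.57 ± 0.15, adjusted p = 0.0734), or in the MAP kinase phosphatases Dusp1 (-0.88 ± 0.24, adjusted p = 0.0846) and Dusp6 (-0.46 ± 0.13, adjusted p = 0.0846). In all, 5 of these 29 genes were lower without overlap, beside 3.2% of all genes tested without overlap in either direction. The list had a median change of -0.13. Ccn1 was the 1 called gene among 23 targets of YAP and SRF, beside 0.109% of all genes lower. The median change of these targets was -0.07.

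**Figure D3:**
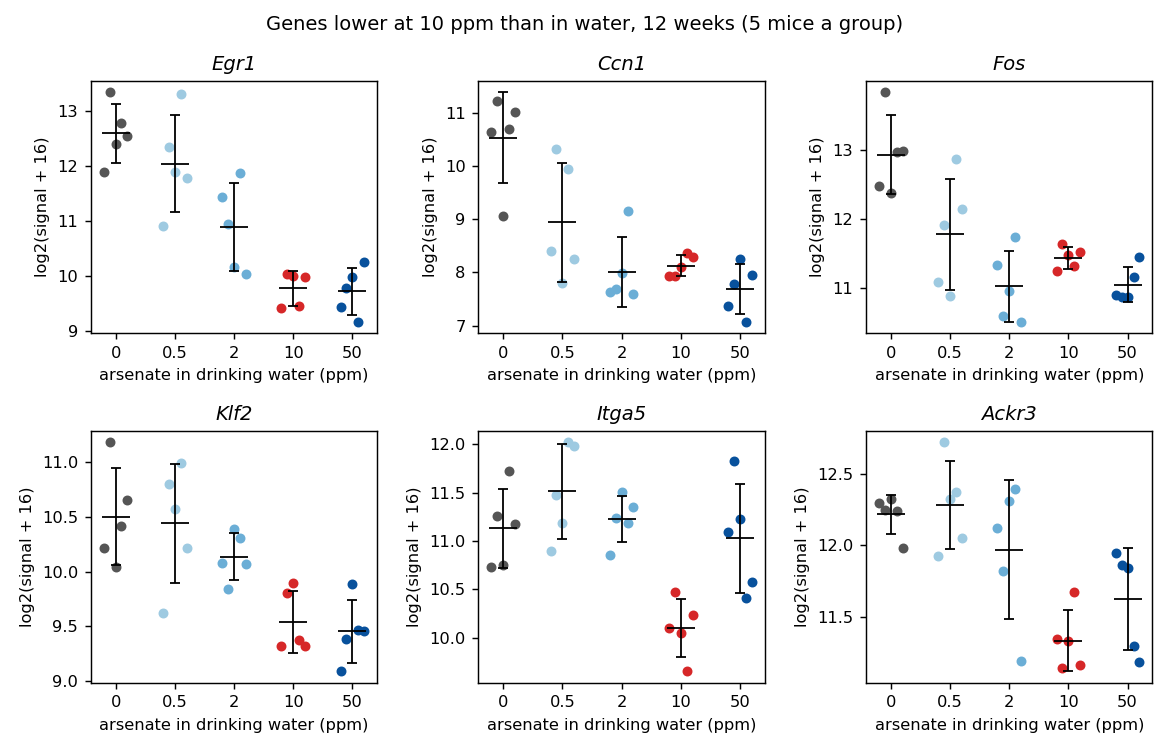
Log2(signal + 16) of 6 genes that fell at 10 ppm, in each mouse of the 12-week harvest by arsenate dose in ppm; points are mice, horizontal bars means and vertical bars SD over 5 mice. In all 6 genes the 10 ppm points lie below the water points, and in Itga5 the 10 ppm mean of 10.10 is also below those of the other 3 doses.

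Receptors and matrix genes were also among the falls. Itga5, the alpha subunit of the fibronectin receptor, had signals of 10.73, 11.26, 10.76, 11.73 and 11.18 in water and of 10.10, 10.47, 10.05, 9.65 and 10.24 at 10 ppm, and fell by 1.03 ± 0.23 (adjusted p = 0.0481). All 4 of its probe sets were lower. Its call was lost in 9 of the 10 fits without a mouse, over which the change ran from -1.13 to -0.88. Ackr3, a scavenger receptor for the chemokine Cxcl12, stood at 11.98 to 12.32 in water and at 11.14 to 11.67 at 10 ppm and fell by 0.89 ± 0.18 (adjusted p = 0.0309).

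Flt4, the VEGF receptor of lymphatic endothelium, fell by 0.64 ± 0.13, the serine protease Htra3 by 0.65 ± 0.14 and the fibroblast protein Pi16 by 0.63 ± 0.14. Elk3, an ETS factor that partners with SRF, fell by 0.47 ± 0.10, although its 4 probe sets ran from -0.47 to 0.45. The remaining falls were in the adaptor subunit Ap3s2 (-0.75 ± 0.16), the zinc finger gene Zfp580 (-0.68 ± 0.14), the scramblase family gene Plscr3 (-0.67 ± 0.15), the RNA-binding cofactor Raver1 (-0.63 ± 0.14) and Ubl7 (-0.52 ± 0.11). Their adjusted p-values lay between 0.0218 for Flt4 and 0.0481 for Pi16 and Raver1. Of these genes only Ap3s2 and Pi16 had treated and water mice that overlapped.

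Itga5 was the 1 of 26 measured integrin and focal adhesion genes that passed the test, beside 0.109% of all genes lower. The median change of this list was -0.16. Next were the adaptor Bcar1 (-0.55 ± 0.17, adjusted p = 0.112), talin, Tln1 (-0.38 ± 0.12, adjusted p = 0.116), and the integrin subunits Itgb3 (-0.68 ± 0.25, adjusted p = 0.181) and Itgb1 (0.51 ± 0.19, adjusted p = 0.194). Of 37 collagen and matrix genes 0 passed limma's test against water, with 9 of 37 higher in mean and a median change of -0.25. With OD260 as a covariate that median was 0.07.

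The rises included genes of RNA processing, transcription and chromosome structure. Ccdc130, a member of a splicing factor family, had signals of 5.89, 5.19, 6.43, 6.16 and 5.56 in water and of 7.11, 6.87, 7.05, 7.27 and 7.45 at 10 ppm. It had the largest rise of the called genes, 1.31 ± 0.22 (adjusted p = 0.00588), with no overlap between the groups. Its second probe set stood at 0.13.

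Cdk12, the kinase that phosphorylates elongating RNA polymerase II and sustains long DNA repair genes, stood at 7.24 to 7.86 in water and at 8.28 to 8.64 at 10 ppm. It rose by 0.93 ± 0.16 (adjusted p = 0.00616), and 6 of its 7 probe sets were higher. Rbm39, a splicing coactivator, stood at 9.51, 8.59, 8.75, 9.41 and 9.21 in water and at 10.09, 9.77, 9.89, 10.00 and 9.82 at 10 ppm, a rise of 0.82 ± 0.16 (adjusted p = 0.0186). All 12 of its probe sets were higher, by 0.48 to 1.27, and 11 had an unadjusted p under 0.05. Rbm39 lost its call without water replicate 2 or 3 or 10 ppm replicate 1, at 0.70, 0.73 and 0.78.

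Pds5a, which regulates the cohesin ring that holds sister chromatids together, rose by 0.86 ± 0.20 (adjusted p = 0.0481) with 1 treated mouse inside the water range, and all 3 of its probe sets were higher. The RNA-binding genes Khdc4 (0.68 ± 0.15), Rbm47 (0.58 ± 0.13) and Snd1 (0.46 ± 0.11) rose, as did Zfp451, a SUMO ligase gene (0.69 ± 0.15), and Slf2, which brings the SMC5/6 complex to damaged DNA (0.56 ± 0.13). Of the 3 probe sets of Rbm47 one stood at -1.17, and of the 3 of Snd1 one at -0.42. In the list of transcription and splicing kinases and cohesin genes 3 of 30 rose (Ccdc130, Cdk12 and Pds5a) and 0 fell, beside 0.226% of all genes higher. This list was chosen with earlier results of these data known, so its count is no independent result. Of its genes 23 of 30 were higher in mean, and the median change was 0.21. The cyclins of the elongation kinase, Ccnt2 (0.68 ± 0.19, adjusted p = 0.0846) and Ccnt1 (0.60 ± 0.17, adjusted p = 0.10), and the splicing kinase Clk4 (0.87 ± 0.29, adjusted p = 0.150) did not pass the test. The list's median was -0.26 with the spike level in the fit, where 0 members rose and 1 fell, 0.11 with OD260 and 0.33 with the hybridization controls. Without water replicate 1 the number of rises was 5, and without each other mouse 2 or 3.

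**Figure D4:**
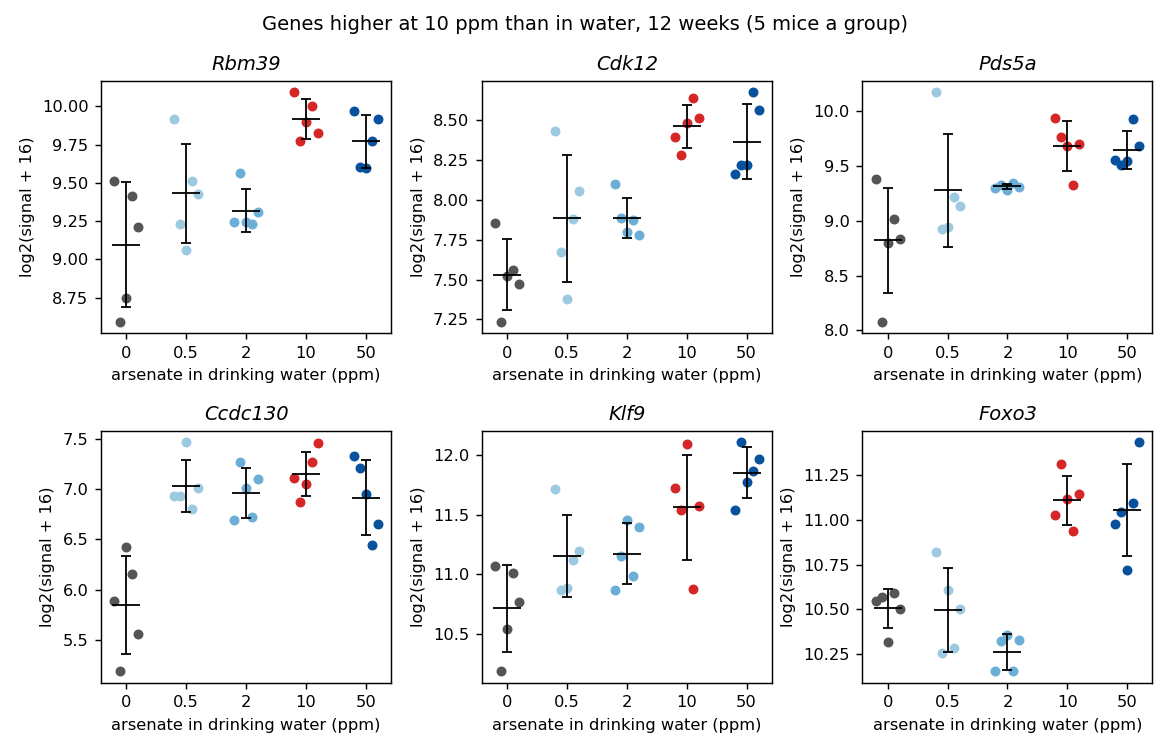
Log2(signal + 16) of 6 genes that rose at 10 ppm, in each mouse of the 12-week harvest by arsenate dose in ppm; points are mice, horizontal bars means and vertical bars SD over 5 mice. The 10 ppm points of Rbm39, Cdk12, Ccdc130 and Foxo3 all lie above the water points, and in Ccdc130 the means of all 4 arsenate doses, 6.92 to 7.15, lie above the water mean of 5.84.

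The signalling genes Foxo3, Ywhaz, Gsk3b and Klf9 rose. Foxo3, a forkhead factor held in the cytoplasm by insulin signalling, ran from 10.32 to 10.59 over the water mice and from 10.94 to 11.31 over the treated mice. It rose by 0.60 ± 0.11 (adjusted p = 0.0181) with no overlap. Of its 3 probe sets 2 were higher, and the other stood at -0.28. Ywhaz, a 14-3-3 protein that binds phosphorylated FOXO factors among many partners, rose by 0.64 ± 0.11 (adjusted p = 0.00528), from 12.14 to 12.85 in water to 13.15 to 13.29. Gsk3b, a kinase that insulin signalling inhibits, rose by 0.60 ± 0.13 (adjusted p = 0.0323), and all 6 of its probe sets were higher, by 0.22 to 0.62.

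Klf9, a glucocorticoid-induced Krüppel-like factor, stood at 11.07, 10.18, 10.54, 11.01 and 10.76 in water and at 11.72, 11.54, 12.09, 10.88 and 11.57 at 10 ppm. The groups overlapped, because 10 ppm replicate 4 lay inside the water range. Klf9 rose by 0.85 ± 0.19 (adjusted p = 0.0442), kept its call in 2 of 10 fits without a mouse, and stood at 0.22 with the spike level in the fit. It was the 1 of 21 glucocorticoid-responsive genes that was called, beside 0.226% of all genes higher. Next were Tsc22d3 (0.54 ± 0.14, adjusted p = 0.0711), Cidea (1.48 ± 0.40, adjusted p = 0.0832) and, in the other direction, Ddit4 (-0.44 ± 0.11, adjusted p = 0.0597) and Dusp1. The 4 probe sets of Tsc22d3 ran from -0.72 to 0.75, and 2 of them were higher. The list's median change was 0.04.

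Further rises were in kinases and cytoskeletal regulators. Hipk1, a nuclear kinase (0.48 ± 0.09), Slk, a kinase of cell migration (0.56 ± 0.11), and the RhoA exchange factors Net1 (0.82 ± 0.16) and Arhgef12 (0.55 ± 0.11) rose, and so did Eml4, a microtubule-binding protein (0.58 ± 0.12). Of the 5 probe sets of Slk 3 were higher, and the others reached -0.53. Membrane and trafficking genes included the trophoblast glycoprotein Tpbg (0.89 ± 0.19), the lipid transporter Abca5 (0.76 ± 0.16), Tmem30b, a subunit of phospholipid flippases (0.42 ± 0.10), Atrn (0.45 ± 0.10), Plekhf2 (0.51 ± 0.12), Plekhh1 (0.50 ± 0.08) and Tmem167b (0.57 ± 0.12).

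Pdia4, a disulfide isomerase of the endoplasmic reticulum, stood at 8.76 to 9.24 in water and at 9.79 to 10.07 at 10 ppm and rose by 0.93 ± 0.19 (adjusted p = 0.0235). Its second, dimmer probe set stood at -0.72, so the 2 disagree in direction. Pdia4 was the 1 of 33 genes of folding and stress in the endoplasmic reticulum that was called, beside 0.226% of all genes higher. The chaperone Calr stood at -0.44 ± 0.12 (adjusted p = 0.0809) and Ppp1r15a, which reverses the stress block on translation, at -0.52 ± 0.15 (adjusted p = 0.0915), both without overlap and lower. Of the 33 genes 1 was higher and 2 were lower without overlap, beside 3.2% of all genes tested. The list's median change was 0.06.

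Xist, the RNA that coats the inactive X chromosome in females, was higher in every treated mouse (13.49 to 14.09) than in any water mouse (12.95 to 13.41) and rose by 0.60 ± 0.12 (adjusted p = 0.0213), and all 3 of its probe sets were higher. The other called rises were 4932431P20Rik (1.07 ± 0.16), Ypel2 (0.69 ± 0.13), Ttc5 (0.63 ± 0.10), the glutathione peroxidase and transferase Mgst3 (0.51 ± 0.11), Zfp871 (0.48 ± 0.11) and the prefoldin subunit Pfdn2 (0.41 ± 0.09). The second probe set of Ttc5 stood at -0.60 and was dim. Over the 38 called genes with more than 1 probe set, all probe sets pointed the same way in 21.

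Water replicates 1 and 2 lay at opposite ends of many of these genes. Water replicate 2 was the highest water mouse in 11 of the 16 falls and the lowest in 20 of the 33 rises. Water replicate 1 was the lowest in 11 of the falls and the highest in 15 of the rises. Among the water arrays, replicate 2 had the highest and replicate 1 the lowest spike level, 11.17 and 10.21, and likewise the highest and the lowest OD260. The part of these measures in the differences between water mice was not tested.

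Of 21 measured genes of arsenic uptake, methylation and efflux 0 passed limma's test, a count at the background share of 0.335% over all genes, and the median change was -0.02. Under quantile normalization, and with array weights, 1 of the 21 was called higher. Nearest was Aqp3, an aquaglyceroporin of the urothelium through which arsenite can enter cells. It stood at 13.09, 12.90, 13.15, 12.93 and 12.95 in water and at 13.36, 13.38, 13.29, 13.92 and 13.55 at 10 ppm, without overlap, a difference of 0.50 ± 0.12 (adjusted p = 0.0566). Of its 4 probe sets 3 were higher, each with an unadjusted p under 0.05, and the other was near the floor. As3mt, the methylating enzyme, stood at -0.29 ± 0.14 (adjusted p = 0.300), the reductase Gsto1 at 0.20 ± 0.10 (adjusted p = 0.308) and Pnp at -0.25 ± 0.11 (adjusted p = 0.240).

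Lists of stress responses that inorganic arsenic is known to induce held 0 called members against water. With 0.335% of all genes called, a count of 0 in lists of this size is at the background and says nothing about them. Of 29 NRF2 targets 0 were called, with a median change of 0.02. The quinone reductase Nqo1 stood at 0.42 ± 0.14 (adjusted p = 0.135), Gstm2 at -0.35 ± 0.11 (adjusted p = 0.131) and the haem oxygenase Hmox1 at 0.28 ± 0.15 (adjusted p = 0.350), from 8.12 to 8.80 in water and 8.61 to 8.80 at 10 ppm. Of 19 metal response genes 0 were called, among them the metallothionein Mt1 (-0.19 ± 0.13, adjusted p = 0.477). The second probe set of Mt1 stood at 0.85, so its 2 probe sets disagreed in direction. The zinc exporter Slc30a1 was higher without overlap (0.55 ± 0.15, adjusted p = 0.0766), but its second probe set stood at -0.74. Counts were also 0 by limma for 22 heat shock genes, 23 p53 targets and 32 DNA repair genes, with median changes of 0.00, -0.01 and 0.12, beside 2347 of all genes at an unadjusted p under 0.05.

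The proliferation and immune lists also had 0 called members, again at the background share of 0.335%. The 40 cell cycle genes had a median change of -0.12, and Pcna, the sliding clamp of DNA replication, stood at 0.30 ± 0.09 (adjusted p = 0.0894). Among 25 interferon-stimulated genes 1 was higher in mean and 24 lower, with a median of -0.20, led by Oas1a (-0.48 ± 0.15, adjusted p = 0.116) and Mx1 (-0.83 ± 0.37, adjusted p = 0.265). The 20 genes of NF-kB and inflammation had a median of -0.16, the 35 of oxidative phosphorylation -0.04 and the 20 of the circadian clock 0.13. In the PDGF and EGF receptor list Elk3 was the 1 called of 21, beside 0.109% of all genes lower, and the median was -0.05.

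Markers of cell types were close to water for most types. The median changes were 0.12 for 15 markers of superficial and intermediate urothelium, -0.10 for 8 basal, 0.08 for 14 smooth muscle, -0.12 for 10 fibroblast, -0.05 for 10 endothelial, -0.17 for 7 pericyte and -0.11 for 10 macrophage markers. Pi16 was the only marker of any type that was called. The umbrella cell keratin Krt20 (0.33 ± 0.10, adjusted p = 0.114) and the urothelial factor Foxa1 (0.25 ± 0.08, adjusted p = 0.147) were higher in every treated than in any water mouse. They were the 2 of those 15 superficial and intermediate markers without overlap, beside 3.2% of all genes tested. Of the 15, 11 were higher in mean, while Pparg stood at -0.23. Under quantile normalization the median of these 15 was 0.04. Mesothelium covers the outer bladder, and fat and blood lie around and within its wall. The mean level of 7 mesothelial markers was 10.09 to 10.59 at 10 ppm and 10.36 to 10.91 in water, with Msln lower without overlap (-0.65 ± 0.23, adjusted p = 0.171). Adipocyte markers stood at 9.39 to 10.79 and 9.93 to 11.73, with 0 of 7 higher in mean, and the 2 red cell markers at 5.71 to 6.91 and 6.48 to 7.71. The 3 neutrophil and 5 mast cell markers were also lower in mean, with medians of -0.47 and -0.26. None of these markers was called. The part of these types in the called genes was not tested.

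**Figure D5:**
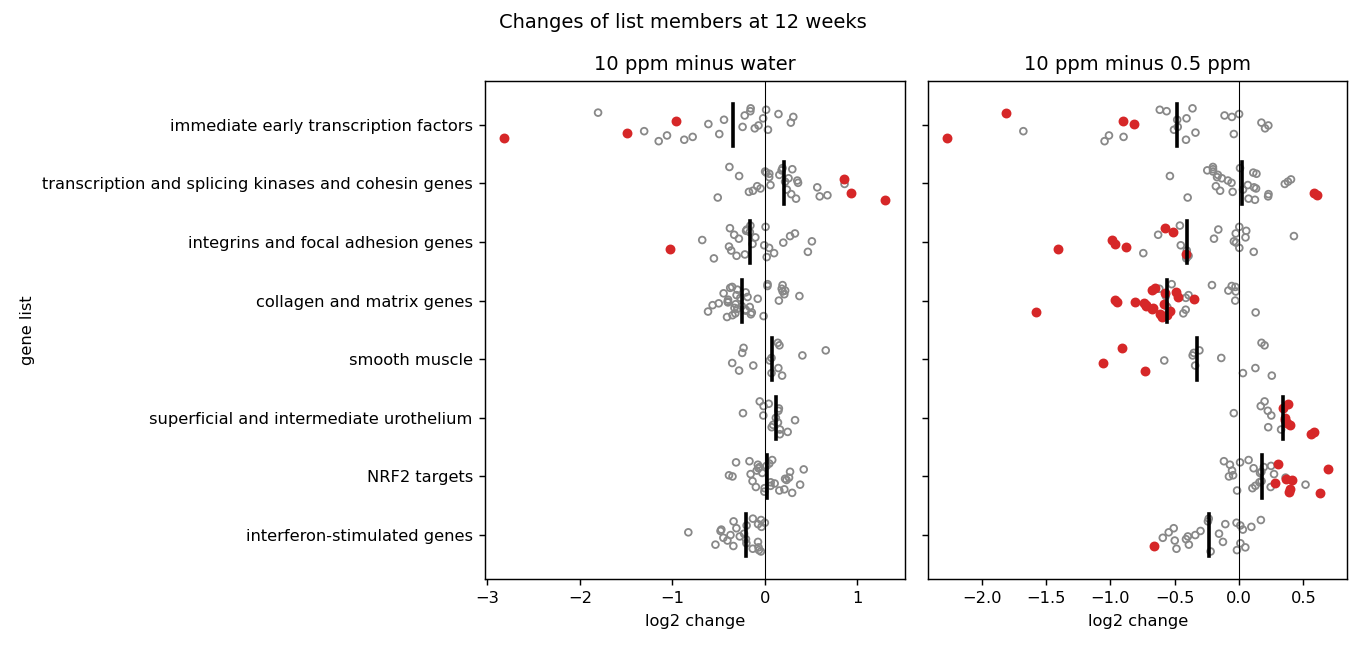
Log2 change of each measured member of 8 gene lists at 12 weeks, 10 ppm minus water (left) and 10 ppm minus 0.5 ppm (right); each point is a gene, filled points passed limma's test over all genes and black bars are list medians. Against water the filled points are 3 immediate early genes, 3 transcription and splicing genes and 1 integrin, while against 0.5 ppm 20 of 37 collagen and matrix genes are filled and lower.

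Against 50 ppm at 12 weeks, the next higher dose, limma called 0 genes (0%), with 1197 at an unadjusted p under 0.05. Egr1 averaged 9.78 ± 0.32 (SD, n = 5) at 10 ppm and 9.72 ± 0.43 at 50 ppm, a difference of 0.06 ± 0.34. Nearest to a call were the vesicle priming gene Unc13d (0.70 ± 0.15), Gm16136 (0.45 ± 0.10) and the basement membrane gene Nid1 (-0.71 ± 0.16), each at an adjusted p of 0.277. Their mean changes from water at 10 ppm were 0.02, 0.14 and -0.15. Fos stood at 11.43 ± 0.16 and 11.04 ± 0.26, Ccn1 at 8.13 ± 0.20 and 7.69 ± 0.47, Klf9 at 11.56 ± 0.44 and 11.85 ± 0.21, Hmox1 at 8.72 ± 0.08 and 9.10 ± 0.26 and Itga5 at 10.10 ± 0.30 and 11.03 ± 0.56. A p that misses the threshold does not show that the 2 doses act alike.

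Against 2 ppm, 147 of 14624 genes were called (1.01%), 79 higher (0.54%) and 68 lower (0.465%) at 10 ppm. The largest rises were in Pdia4 (1.08 ± 0.19), 4932431P20Rik (1.05 ± 0.16), Tmem25 (1.00 ± 0.23), Foxo3 (0.84 ± 0.11) and 5430405H02Rik (0.82 ± 0.21). The largest falls were in the mitotic kinase gene Nek2 (-1.83 ± 0.44), Ccn5 (-1.73 ± 0.37), which like Ccn1 encodes a secreted matrix protein, Lbh (-1.49 ± 0.23), the centrosome gene Wdr62 (-1.43 ± 0.32) and Ssc5d (-1.22 ± 0.26). Nek2 averaged 4.62 at 10 ppm, near the floor, so the size of its fall depends on the offset. Aqp3 was higher than at 2 ppm by 0.67 ± 0.12 (adjusted p = 0.00391), Nqo1 by 0.58 ± 0.14 and Foxa1 by 0.34 ± 0.08, while Itga5 (-1.12 ± 0.23), Col1a1 (-1.02 ± 0.24), elastin, Eln (-0.89 ± 0.20), and Jund (-0.84 ± 0.18) were lower. Aqp3 kept its call without each mouse in turn. The count of called genes was 41 to 82 without 1 mouse, except 132 without 2 ppm replicate 4. It was 57, 58, 82, 66 and 70 without 10 ppm replicates 1 to 5, and 70, 82, 41 and 57 without 2 ppm replicates 1, 2, 3 and 5. Neither OD260 nor the spike level overlapped between the 10 and 2 ppm arrays, and OD260 was not fitted here.

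Against 0.5 ppm, the lowest dose, 970 genes were called (6.63%), 452 higher (3.09%) and 518 lower (3.54%) at 10 ppm. In the lists, 20 of 37 matrix genes were lower, and 8 of 15 urothelial markers and 8 of 29 NRF2 targets were higher. With the RNA integrity number in the fit these counts were 5, 1 and 1. OD260, which did not overlap between the 10 and 0.5 ppm arrays, was not fitted here. Col1a1, the alpha 1 chain of type I collagen, had signals of 11.53, 12.31, 12.24, 11.21 and 12.23 at 10 ppm and of 13.20, 13.17, 13.56, 13.59 and 13.87 at 0.5 ppm, without overlap. It fell by 1.58 ± 0.24 (adjusted p = 3.51e-04). The water mice, at 11.92 to 13.45, overlapped with both, and Col1a1 stood at -0.61 ± 0.24 against water (adjusted p = 0.211). Its second probe set stood at 0.33 against water, so the 2 disagreed in direction.

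In all, 20 of 37 collagen and matrix genes were lower than at 0.5 ppm and 0 higher, with a median change of -0.56 against -0.02 over all genes. Among them were Eln (-0.96 ± 0.20), Col8a1 (-0.95 ± 0.20), Col6a3 (-0.81 ± 0.20), the gelatinase Mmp2 (-0.67 ± 0.18) and the basement membrane chains Col4a1 (-0.68 ± 0.15) and Col4a2 (-0.67 ± 0.17). The count was 9 without 10 ppm replicate 4 or 0.5 ppm replicate 5, 11 and 12 without 0.5 ppm replicates 4 and 3, and 14 to 22 without each of the others. It was 5 with the RNA integrity number, 9.44 at 0.5 ppm on average, in the fit. Integrin and focal adhesion genes followed, with 7 of 26 lower and 0 higher, among them Itga5 (-1.41 ± 0.23), Itgb3 (-0.98 ± 0.25), Itga9 (-0.96 ± 0.19) and Itga7 (-0.88 ± 0.18). Of these genes 4 were lower without 10 ppm replicate 4, and 4 with the integrity number in the fit.

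Fibroblast markers were lower for 5 of 10 genes, including Pi16 (-0.81 ± 0.14) and the PDGF receptor Pdgfra (-0.64 ± 0.18), and their mean level was 12.18 to 12.90 at 10 ppm and 13.02 to 13.23 at 0.5 ppm. Smooth muscle markers were lower for 3 of 14, Lmod1 (-1.06 ± 0.23), Synpo2 (-0.91 ± 0.21) and Casq2 (-0.73 ± 0.19). The fibroblast count was 2 without 10 ppm replicate 4, 3 without 0.5 ppm replicate 4 or 5, and 2 with the integrity number in the fit. The smooth muscle count was 1 with the integrity number and 7 under quantile normalization. The mean level of markers of superficial and intermediate urothelium was 13.43 to 13.76 at 10 ppm and 13.10 to 13.33 at 0.5 ppm, without overlap. Of these 15 genes 8 were higher and 0 lower, namely Foxa1 (0.58 ± 0.08), Elf3 (0.56 ± 0.14), Krt18 (0.40 ± 0.10), Krt19 (0.38 ± 0.10), Upk3a (0.38 ± 0.09), Krt7 (0.36 ± 0.10), Krt20 (0.36 ± 0.10) and Upk1b (0.34 ± 0.10). Their count was 2 without 10 ppm replicate 4, 4 without 0.5 ppm replicate 2 or 4, 5 without 10 ppm replicate 2, and 3 under quantile normalization. It was 1 with the integrity number and 2 with the hybridization controls in the fit, and 4 with only these 2 groups fitted. The part of a different share of epithelium and stroma in these results was not tested.

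Of 29 NRF2 targets 8 were higher than at 0.5 ppm and 0 lower, with a median of 0.17. Nqo1 stood at 12.04, 12.21, 12.35, 12.15 and 12.03 at 10 ppm and at 11.40, 11.56, 11.41, 11.28 and 11.65 at 0.5 ppm, a rise of 0.69 ± 0.14 (adjusted p = 0.00361). The transporter Abcc3 rose by 0.63 ± 0.12, the glutathione transferases Gsta3 and Gsta4 by 0.41 ± 0.10 and 0.37 ± 0.09, the carbonyl reductase Cbr1 by 0.40 ± 0.09 and Gclm, a subunit of the enzyme that starts glutathione synthesis, by 0.28 ± 0.08. The count was 4 without 10 ppm replicate 4 or 0.5 ppm replicate 2, 5 without 0.5 ppm replicate 4, 1 with the integrity number and 3 with the hybridization controls in the fit, and 13 with the spike level. Aqp3 was higher by 0.79 ± 0.12 (adjusted p = 3.51e-04), with 12.54 to 12.93 at 0.5 ppm against 13.29 to 13.92 at 10 ppm, and Gsto1 by 0.37 ± 0.10.

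Immediate early genes were lower than at 0.5 ppm for 4 of 24, Egr1 (-2.27 ± 0.34), Nr4a1 (-1.81 ± 0.51), Klf2 (-0.90 ± 0.21) and Jund (-0.81 ± 0.18), while Fos (-0.34 ± 0.28) and Ccn1 (-0.81 ± 0.40) did not pass the test. The immediate early count was 1 with the integrity number in the fit, and 2 falls beside 1 rise with the spike level. Of 20 clock genes 5 were higher, the output factor Dbp (1.31 ± 0.27), the repressor Ciart (1.47 ± 0.39), Per3 (0.82 ± 0.22), the kinase Csnk1d (0.52 ± 0.09) and Tef (0.39 ± 0.12). Dbp stood at 11.15, 11.10, 12.73, 11.44 and 11.08 at 10 ppm, so that replicate 3 was well above the other 4, and at 9.54 to 10.81 at 0.5 ppm. The clock count was 2 without that mouse or without 0.5 ppm replicate 4 or 5, and 1 with the integrity number in the fit. Other large changes were the rises of Ammecr1 (1.56 ± 0.35) and 1700001D01Rik (1.54 ± 0.46), both under 5 at 0.5 ppm and thus near the floor, and the falls of Ccn5 (-1.69 ± 0.37) and Cep250 (-1.57 ± 0.32). The count over all genes was 409 without 10 ppm replicate 4, 639 without 10 ppm replicate 5, and 507 and 631 without 0.5 ppm replicates 4 and 5.

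Over the doses of the 12-week harvest, Egr1 averaged 12.60 in water, 12.05 at 0.5 ppm, 10.89 at 2 ppm, 9.78 at 10 ppm and 9.72 at 50 ppm. Its means thus fell in the order of the doses, with the 2 highest doses apart by less than their SD. Fos averaged 12.92, 11.77, 11.02, 11.43 and 11.04, and Ccn1 10.53, 8.94, 8.01, 8.13 and 7.69, so that in both the 10 ppm mean was not below that at 2 ppm. Nr4a1 averaged 11.51, 11.51, 10.79, 9.71 and 9.62. Klf9 averaged 10.71, 11.15, 11.17, 11.56 and 11.85, and Hmox1 8.44, 8.54, 8.94, 8.72 and 9.10. As3mt (8.41 to 8.79) and Mt1 (12.81 to 13.14) had no order by dose.

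The effect of 10 ppm was set beside that after 1 week in a fit of all 49 arrays, as the difference between the 2 effects. The 3 array measures that separated the groups at 12 weeks were close after 1 week. Their 1-week means at 10 ppm and in water were 1.46 and 1.45 for OD260 and 10.75 and 10.83 for the spike level. For the hybridization controls they were 11.62 and 11.64. The difference between harvests thus also holds a 12-week difference in these measures. OD260 was not fitted here, and its part was not tested. Limma called 201 of 14624 genes (1.37%), 137 with a higher and 64 with a lower effect at 12 weeks. Egr1 differed by -2.26 ± 0.48 (adjusted p = 0.0100): it stood at -0.56 ± 0.30 after 1 week, from a water mean of 10.79 ± 0.62 (SD, n = 5) to 10.23 ± 0.60, and at -2.82 ± 0.34 after 12 weeks. The water means of the 2 harvests were further apart, at 10.79 and 12.60, than the 10 ppm means, at 10.23 and 9.78. Fos (-1.11 ± 0.44, adjusted p = 0.218) and Ccn1 (-1.61 ± 0.74, adjusted p = 0.312) did not differ past the test.

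Cdk12 (1.11 ± 0.22), Ccdc130 (1.39 ± 0.34), Rbm39 (0.95 ± 0.22), Foxo3 (0.81 ± 0.15) and Xist (0.75 ± 0.16) had a higher effect at 12 weeks, with 1-week values of -0.18, -0.08, -0.12, -0.21 and -0.16 that were not called. Zfp451 and Slf2 were lower than water after 1 week, by -0.78 ± 0.14 (adjusted p = 0.00837) and -0.52 ± 0.12 (adjusted p = 0.0291), and higher after 12 weeks. Among glucocorticoid-responsive genes Tsc22d3 (1.23 ± 0.24), Cidea (2.07 ± 0.46) and Zbtb16 (1.11 ± 0.29) had a higher effect and Ddit4 (-0.57 ± 0.15) a lower one. The largest differences were in Fam107a (2.26 ± 0.47), Plg (2.25 ± 0.61), Gm13306 (2.07 ± 0.52), Cidea and 4833439F03Rik (2.01 ± 0.53), and on the other side in Egr1, Odf1 (-1.89 ± 0.49), Cacna1f (-1.52 ± 0.40), Zfp51 (-1.48 ± 0.39) and Serpinb1a (-1.29 ± 0.31). Plg, a liver transcript, averaged 4.58 in the 12-week water mice, and Odf1 4.93 in the 12-week treated mice, near the floor. With an offset of 1 and of 64 the difference was 3.30 and 1.31 for Plg, which then missed the threshold, and -3.33 and -0.89 for Odf1. The 13 measured liver markers, Plg among them, had a median difference of 1.10, with 11 higher and 1 called, and their part in the result was not tested. After 1 week Fam107a was lower at 10 ppm (-1.66 ± 0.34, adjusted p = 0.0187), while Plg stood at -1.55 ± 0.48 (adjusted p = 0.101) and 4833439F03Rik at -1.11 ± 0.40 (adjusted p = 0.154). Leaving out a 12-week water mouse gave 339 calls for replicate 1 and 123 for replicate 5, and leaving out a 1-week water mouse 113 for replicate 2 and 120 for replicate 3. The count was 109 without 10 ppm replicate 1 of 12 weeks and 108 without 10 ppm replicate 4 of 1 week.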

How the data were processed

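Whole bladders were kept in RNA later, and their RNA (Trizol extraction, Qiagen clean-up) was biotin-labelled for 1-colour arrays, 1 mouse each. The authors deposited a linear intensity for each probe set, and GCOS 1.0 is named per the submitters' processing notes, and its settings are not stated there. The 2% trimmed mean of every array was 500.003 to 500.004, so arrays had been scaled before deposit. Of 45101 probe sets, those annotated to 1 gene (34945; 932 had several genes, 9160 none, 64 were controls) were used as log2(value + 16). Each gene took its brightest probe set on average, and genes above the 40th percentile in at least 4 arrays were kept. The number of arrays limits the precision.

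Limma 3.58.1 (lmFit, eBayes with trend) in R 4.3.3 fitted group means to the 25 arrays of 12 weeks, and to all 49 arrays for the difference between harvests. The 1-week effects come from a fit of that harvest alone. P-values were Benjamini-Hochberg adjusted over all genes, and "called" means an adjusted p under 0.05. The scripts were tested on simulated data. The data.table package was at version 1.17.8. Figures used matplotlib 3.10.9 and pandas 2.3.3 under Python 3.11.15.

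The comparison, the genes and the 38 gene lists were chosen with earlier results of these data known. The rule named every called gene with all treated arrays on 1 side of the water mean, the called members of a list with up to 4 more of smallest p, and the 5 largest called rises and falls of the other comparisons, or the 3 genes of smallest p. It also named 8 genes at each dose (Egr1, Fos, Ccn1, Nr4a1, Klf9, Hmox1, As3mt and Mt1). The alternatives tried, with other offsets, scaling, filters, probe sets, weights, covariates, blocks and arrays, are given with their effect in the closing section.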

Additional observations from a re-analysis of the deposited data

Results flagged for a closer look

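In 7 of 106 groups of 5 arrays tested for the genes named against water, 1 array stood apart from the other 4, with a gap over 0.71 of the group's range. Chance gives about 1 in 20 groups. All 7 were water arrays. Ccn1 was low in replicate 3 (9.06), Ackr3 in replicate 5 (11.98), Gsk3b and Khdc4 in replicate 2 (8.93 and 8.92), and As3mt in replicate 3 (8.29). Ttc5 stood apart at 9.63 in replicate 5, and Ap3s2 at 8.57 in replicate 1.

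For 22 of the 49 called genes the effect of 10 ppm at 12 weeks differed from that at 1 week in limma's fit of all arrays, beside 201 of all 14624 genes (1.37%). The 49 were chosen by their 12-week effect, which is part of this difference, so the count is no independent result. The difference was negative for Egr1 (-2.26) and the adaptor subunit Ap3s2 (-0.88). Among genes of RNA processing, transcription and chromosomes it was 1.47 for Zfp451, 1.39 for Ccdc130, 1.11 for Cdk12, 1.09 for Slf2, 0.99 for Zfp871, 0.95 for Rbm39 and 0.75 for Xist. Among kinases, signalling and cytoskeletal genes it was 0.97 for Net1, 0.89 for Slk, 0.86 for Ywhaz, 0.84 for Eml4, 0.82 for Gsk3b, 0.81 for Foxo3, 0.73 for Arhgef12 and 0.67 for Hipk1. For the other genes it was 1.41 in 4932431P20Rik, 1.12 in Tpbg, 1.04 in Abca5, 0.98 in Ttc5 and 0.75 in the prefoldin subunit Pfdn2.

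The hybridization controls, which are not part of the mouse transcriptome, were 0.555 log2 units higher at 10 ppm than in water.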

How the results depend on the processing

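Against water the count of 49 was 75 with the filter at the 60th percentile, 135 over all probe sets, 497 with array weights, 226 with all 49 arrays fitted and 10 with only the 2 groups. It was 29 with the RNA integrity number as covariate, 20 with the hybridization controls and 0 by limma with OD260 (655 at an unadjusted p under 0.05), and 31 genes passed a 1.5-fold minimum. It was 50 and 51 with offsets of 1 and 64, 35 with no filter, 52 under quantile normalization (30 higher, 22 lower) and 56 with the spike level (27 higher, 29 lower). None of the 49 changes reversed in these fits (all probe sets were not followed by gene) or in those without 1 array. Several of them shrank strongly with the spike level, such as Slf2 from 0.56 to 0.03. Mt1, not called, turned from -0.19 to 0.41 with the spike level.

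Against 50 ppm 6 genes were called with the spike level and 0 by limma in the other fits. Against 2 ppm the count of 147 was 486 with array weights, 899 with the spike level, 97 with the hybridization controls and 240 with all arrays. Against 0.5 ppm the count of 970 was 2138 with array weights, 188 with the integrity number, 2337 with the spike level and 634 with the 2 groups alone. The difference between harvests, 201, was 538 over all probe sets and 771 with array weights. It was 260 with the spike level (122 higher, 138 lower), and 74 of these were among the 201. With the hybridization controls it was 141, of which 116 were among the 201, and with the integrity number 162, of which 111 were. That last fit left out 10 ppm replicates 1 and 2 of 1 week, which have no integrity number. Without 1 array the counts ran from 9 to 331 against water, 41 to 132 against 2 ppm, 409 to 1190 against 0.5 ppm and 108 to 339 between harvests, and stayed 0 against 50 ppm. The cause of these shifts was not tested.

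With the replicate number as a block the counts were 63, 0, 150, 998 and 195, and 46 of the 49 calls against water held. Same-numbered treated and water arrays had correlations of -0.03 to 0.19, with 1 of 5 pairs over 0.1, so the numbers were not taken as pairs.

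The 3 array measures that separate 10 ppm from water limit any split of dose from RNA handling. OD260 limits it likewise against 0.5 and 2 ppm, where it was not fitted, and the spike level against 2 ppm. The 5 mice a group limit precision.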
